A study of Mus musculus with 2 samples.

Results

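The genes described here build the kinetochore and run the spindle checkpoint in dividing erythroid progenitors. They are 35 genes listed by symbol, found among 43346 Ensembl gene rows through the GENCODE M21 names of their identifiers, and all 35 were present and annotated as protein-coding. Nuclear protein-coding genes numbered 21461 in the same tables and serve below as the comparison. RNA of mouse CFU-E cells (colony-forming unit erythroid, a progenitor that divides under erythropoietin on the way to the red cell) was sequenced after removal of ribosomal RNA. Both libraries came from primary cells of male C57BL/6J mice aged 5 to 6 weeks, for which the labels name no modification or treatment, and each was made from 100 ng of RNA with ScriptSeq. They form 1 group, replicate 1 and replicate 2, so the study holds no comparison between conditions. The labels give the replicates separate biosamples but 1 donor identifier, and part of their spread may therefore be technical. Levels are given as TPM, the usual length-corrected abundance: a count divided by transcript length and scaled to a fixed library sum, so it can be set side by side between genes.

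The kinetochore is the protein plate on each centromere that holds spindle microtubules. A constitutive inner layer of CENP proteins sits on centromeric chromatin, the KNL1, MIS12 and NDC80 complexes build outward from it, and a fibrous corona forms outside. Kinetochores that lack microtubules load checkpoint proteins, which hold back CDC20 and with it the anaphase-promoting complex, while Aurora B in the chromosomal passenger complex detaches wrong attachments and shugoshins guard centromeric cohesion. Transcripts of many of these genes accumulate in G2 and mitosis, and a promoter pair known to bear on this is the cell cycle homology region (CHR), bound by the DREAM and B-MYB complexes, with CCAAT boxes bound by NF-Y.

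Promoter windows from 250 bases before to 50 after the annotated start were available for 31 of the 35 members, in 36 windows, from the RefSeq table on GRCm38.p6. Aurkb, Incenp, Nsl1 and Spc24 had no window there. The CHR was searched as TTTGAA or TTCGAA and the CCAAT box as CCAAT, each on both strands. The CHR letters occurred in 17 of the 31 members (54.84%), against 21.7% of all 27025 genes in the table. CCAAT occurred in 23 members (74.19%), against 41.1% of all genes. Both occurred in 15 members (48.39%), against 8.61% of all genes and 8.46% of the 4102 protein-coding genes of the table that reached 1 TPM in both libraries. E2F letters (TTTCGCGC, TTTGGCGC or TTTCCCGC) occurred in 3 members, Dsn1, Cenpl and Cenpm (9.68%), against 2.12% of all genes and 5.66% of those at 1 TPM. These are matches of letters, not measured binding sites.

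The stretch from 100 bases before the start to 50 after it is printed for 1 member of each class that had both motifs there, namely the member with the highest level. The classes are the NDC80 complex (Spc25), the inner kinetochore (Cenpn), the corona (Cenpf), the checkpoint (Cdc20), the passenger complex (Cdca8), the mitotic kinases (Aurka) and the shugoshins (Sgo1). They show the spacing that the counts above cannot, with CHR and CCAAT letters in capitals, ATTGG and TTCAAA being the same boxes on the other strand. On GRCm38.p6 the stretches are chr2:69206164-69206313 (minus strand) for Spc25, chr8:116921640-116921789 (plus strand) for Cenpn, chr1:189688037-189688186 (minus strand) for Cenpf, chr4:118437294-118437443 (minus strand) for Cdc20, chr4:124936868-124937017 (minus strand) for Cdca8, chr2:172370521-172370670 (minus strand) for Aurka and chr17:53689266-53689415 (minus strand) for Sgo1, each written 5′ to 3′ on the strand of the gene.
Spc25: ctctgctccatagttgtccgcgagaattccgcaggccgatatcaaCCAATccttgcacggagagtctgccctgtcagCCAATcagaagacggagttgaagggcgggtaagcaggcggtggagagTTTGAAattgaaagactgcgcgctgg
Cenpn: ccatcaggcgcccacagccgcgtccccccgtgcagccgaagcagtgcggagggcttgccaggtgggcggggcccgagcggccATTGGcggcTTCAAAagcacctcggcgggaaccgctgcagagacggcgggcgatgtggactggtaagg
Cenpf: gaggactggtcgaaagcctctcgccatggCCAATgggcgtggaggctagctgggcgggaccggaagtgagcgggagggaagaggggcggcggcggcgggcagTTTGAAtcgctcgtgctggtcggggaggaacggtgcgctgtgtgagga
Cdc20: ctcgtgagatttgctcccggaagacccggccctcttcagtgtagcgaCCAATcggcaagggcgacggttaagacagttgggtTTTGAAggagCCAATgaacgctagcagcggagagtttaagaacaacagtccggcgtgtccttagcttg
Cdca8: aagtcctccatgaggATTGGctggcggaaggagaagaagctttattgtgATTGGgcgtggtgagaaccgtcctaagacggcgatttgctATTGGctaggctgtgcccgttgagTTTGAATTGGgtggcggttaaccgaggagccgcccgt
Aurka: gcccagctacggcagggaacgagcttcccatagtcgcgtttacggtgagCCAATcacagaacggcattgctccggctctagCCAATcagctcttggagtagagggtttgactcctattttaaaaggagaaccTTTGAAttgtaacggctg
Sgo1: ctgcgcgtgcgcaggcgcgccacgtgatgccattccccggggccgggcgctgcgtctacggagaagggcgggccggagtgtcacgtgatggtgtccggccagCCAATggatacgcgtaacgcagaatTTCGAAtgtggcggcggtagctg

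Positions are those of the first base of a match in the direction of the gene, with the first transcribed base as 1. Counted from the RefSeq start, the CHR letters lay at 25, 3, 14, 33 and 28 bases in Spc25, Cenpf, Cdca8, Aurka and Sgo1, with a CCAAT box on the upstream side of them. In Cenpn and Cdc20 they lay 9 and 18 bases before that start. The gene boundary in GENCODE M21 is the same for Cenpf and differs for the others, most in Cdca8. Counted from it the CHR of Aurka lies before the start (-3) and that of Cenpn after it (2), so the side is a matter of annotation. In Cdca8 the CHR runs into a CCAAT box on the opposite strand, and it was the 1 member where matches of the motifs overlapped. Over all members, 14 had a CHR within 50 bases of the RefSeq start on either side. The share of all genes with a CHR in that stretch was not computed, so this count has no background. Ndc80 and Knl1 had a CHR and no CCAAT box, at 30 and 32 bases from the same start. Birc5, Nuf2, Mad2l1, Mad1l1 and Cenpt had none of the searched letters in this window, although Birc5 and Nuf2 were among the more abundant members.

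Levels of members with and without the motif pair had similar medians. The 15 members with both had a median of 16.82 TPM in replicate 1 and 12.31 in replicate 2, and the 16 with a window but without both had 16.2 and 10.78. The same letters in other kinetochore, centromere and mitotic exit genes, of which 55 had a window, gave a CHR in 21, CCAAT in 29, both in 13 and E2F letters in 4. Over all 27025 genes in the table the shares were 21.7%, 41.1%, 8.61% and 2.12%. For E2F letters the share was 5.66% of protein-coding genes at 1 TPM in both libraries.

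**Figure D1:**
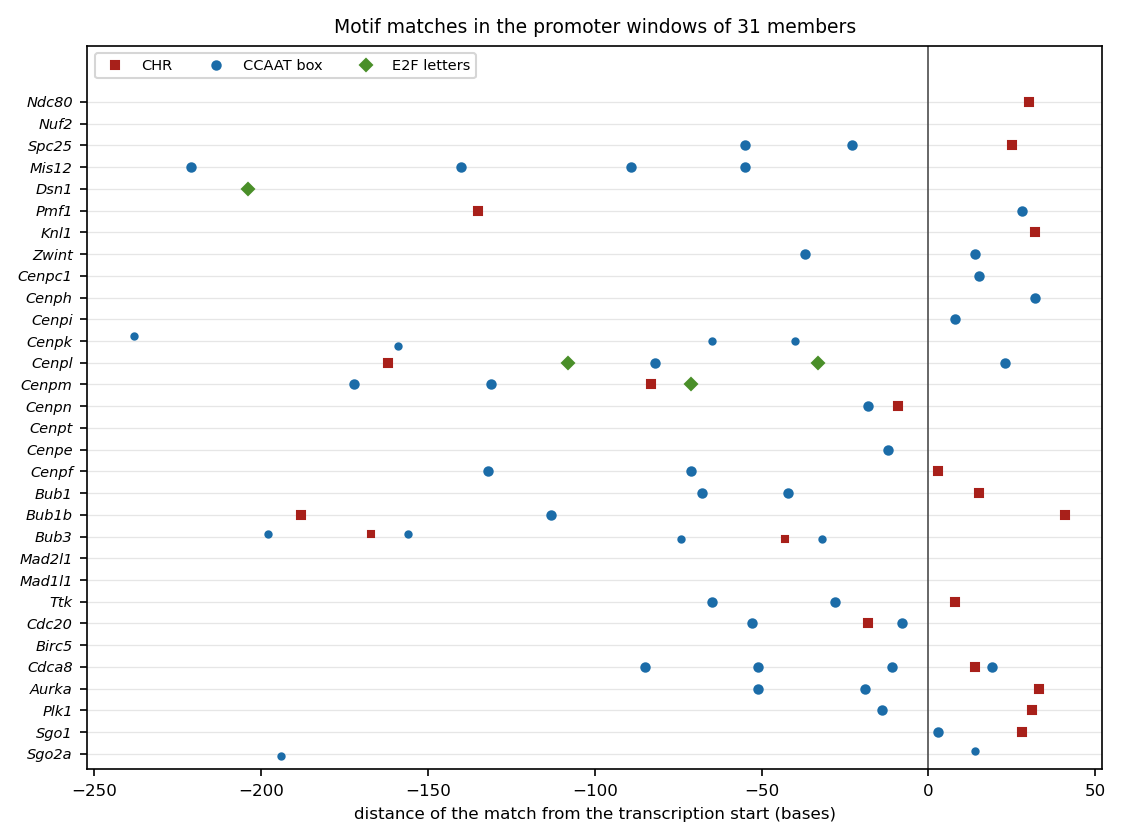
Positions of CHR (red squares), CCAAT (blue circles) and E2F letters (green diamonds) in the promoter windows of 31 members, as the distance in bases of each match from the annotated start (vertical line). Smaller marks belong to members with several windows, drawn at slightly different heights. In 14 members a CHR square lies between 50 bases before and 50 after the start.

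All 35 members were expressed in both libraries. Every member reached 1 TPM or more in both, as did 23.9% of nuclear protein-coding genes, and 22 reached 10 TPM in both, as did 4.79%. The median member had 16.82 TPM in replicate 1 and 10.8 in replicate 2, while protein-coding genes with at least 10 counts in each library had medians of 1.94 and 1.19. Ranked among all nuclear protein-coding genes, the median member stood at the 95.52 percentile in replicate 1 and 95.55 in replicate 2, and the lowest member, Cenpm, at 72.64 and 81.6. Together the 35 genes held 0.7458% and 0.8164% of the protein-coding TPM. Within the module the levels spanned 91.02-fold in replicate 1 and 45.69-fold in replicate 2, from Cenpm to Birc5. The order of levels was similar in the libraries (Pearson r of log2 TPM 0.9638, Spearman rho 0.9532, across 35 genes that share each library, as a description). Of the 34 neighbouring pairs in the order by mean, 11 kept that order in each library, so most neighbours cannot be ranked from these libraries. In bulk RNA a smaller share of cells near mitosis and less RNA per cell cannot be told apart, which holds for every level given here.

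Deposited TPM was higher in replicate 1 for 33 of the 35 members, all but Mis12 and Cenpm. That shift was shared by the libraries at large: the median log2 TPM ratio of replicate 1 over replicate 2 was 0.63 for members and 0.67 for all genes whose counts averaged 50 or more. Once TPM was rescaled to a fixed sum over nuclear protein-coding genes alone, in the same unit, the median member had 135.4 in replicate 1 and 144.2 in replicate 2. SDs of deposited TPM below therefore contain this shift of scale, and differences between the libraries are taken from scaled counts further on. Rescaling took Birc5 from 116.5 to 938.1 TPM in replicate 1 and from 84.52 to 1128.9 in replicate 2. Nuclear protein-coding genes thus held only part of the deposited TPM, and less of it in replicate 2. A threshold of 10 deposited TPM is therefore stricter than 10 rescaled TPM, and more so in replicate 2. Library totals were 62576357 and 36889517 expected counts, of which members held 439385 and 270989, and each member had at least 199 counts in each library.

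**Figure D2:**
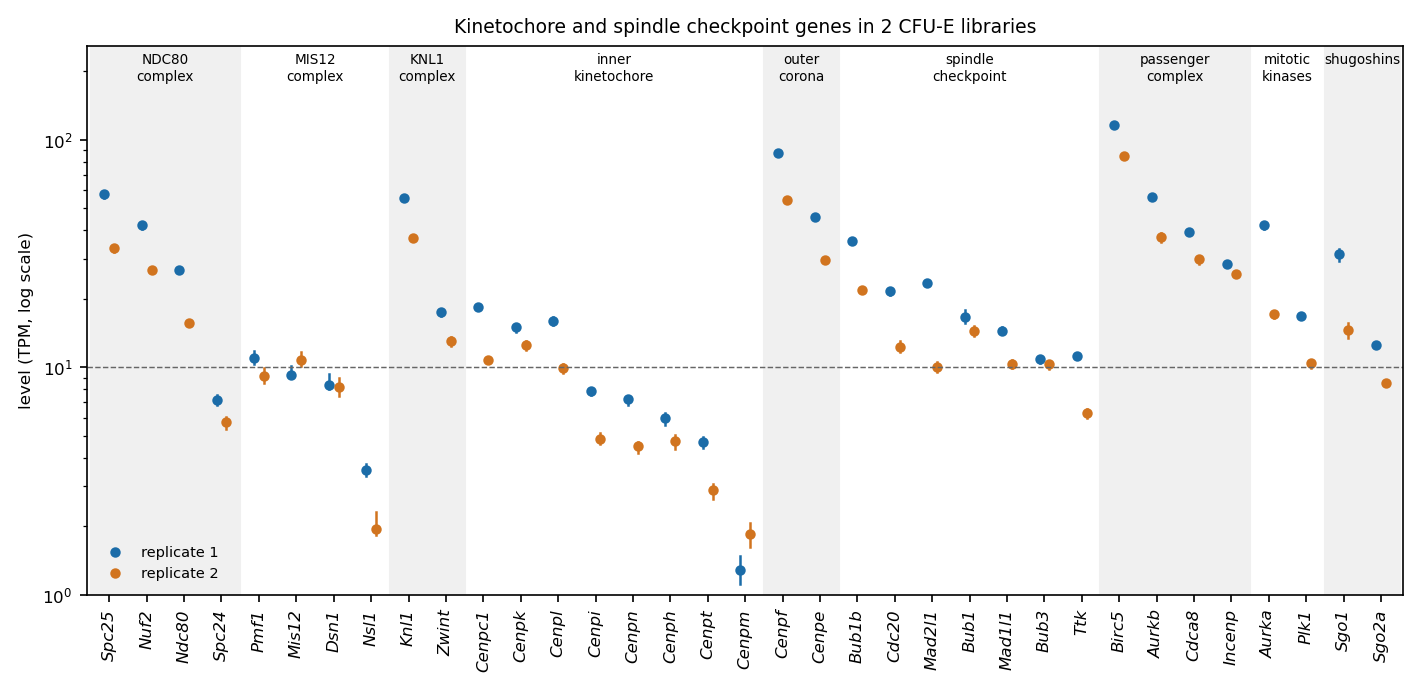
Level of each member in replicate 1 (blue) and replicate 2 (orange), in TPM on a log axis, grouped by complex and ordered by mean within it. Vertical lines are the deposited credibility intervals and the dashed line is 10 TPM; MIS12 complex genes lie around or below that line, while Birc5 and Cenpf lie highest.

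The NDC80 complex is the rod that grips the microtubule, and it holds 1 copy each of 4 proteins. Its transcripts were not equal. Spc25 (chromosome 2, 69193895 to 69206194 on mm10), a subunit of the inner end of the rod, measured 57.52 TPM in replicate 1 and 33.39 in replicate 2, a mean of 45.45 ± 17.06 (SD, n = 2). Nuf2, at the microtubule end, measured 42.08 and 26.64 TPM. On coding transcripts alone Nuf2 was the higher, at 39.0 and 24.76 TPM against 35.75 and 21.14 for Spc25. Ndc80, the subunit whose head contacts the microtubule, measured 26.69 and 15.71 TPM. Spc24, the direct partner of Spc25, measured 7.21 and 5.73 TPM and was the lowest of the 4 in both libraries. The Spc24 to Spc25 ratio was 0.1253 in replicate 1 and 0.1716 in replicate 2, or -2.77 ± 0.32 on the log2 scale, and -2.10 ± 0.30 on coding transcripts alone. The Ndc80 to Nuf2 ratio was closer to parity at -0.71 ± 0.07, and both differences from parity exceeded the spread between libraries. For Ndc80 to Spc25 the log2 ratio was -1.10 ± 0.01. It shrank to -0.43 ± 0.005 on coding transcripts alone and to -0.09 ± 0.07 on counts not divided by length.

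The MIS12 complex joins the outer plate to the inner centromere. None of its 4 genes reached 10 TPM in both libraries, the fewest of any class of 4 or more, although Pmf1 and Mis12 each did in 1. By class median the inner kinetochore was lower, at 7.53 and 4.78 TPM in replicates 1 and 2 against 8.815 and 8.675. Pmf1 measured 11.03 and 9.18 TPM in replicates 1 and 2, and Mis12, for which the complex is named, 9.25 and 10.77. Their ratio did not differ from parity beyond its spread (-0.01 ± 0.34 on the log2 scale), whereas on coding transcripts alone Mis12 was the higher (0.52 ± 0.34). Dsn1, whose basic segment masks the CENP-C site until Aurora B phosphorylates it, measured 8.38 and 8.17 TPM. Nsl1 was lowest at 3.52 and 1.95 TPM, and the Dsn1 to Nsl1 log2 ratio was 1.66 ± 0.58. The exons of Mis12 overlap those of Derl2 on the opposite strand, which was listed at 4.04 and 1.97 TPM, and no source used here says whether counting used the strand.

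The KNL1 complex carries the phosphorylation sites that recruit the BUB proteins. Knl1 (chromosome 2, 119047119 to 119105501), its large scaffold, was the fourth most abundant member by mean, with 55.72 TPM in replicate 1 and 36.83 in replicate 2. Zwint, its small partner, measured 17.43 and 12.98 TPM. Knl1 was 3.197-fold and 2.837-fold higher than Zwint, and 6.024-fold and 3.42-fold higher than Mis12, in replicates 1 and 2. Class medians in replicate 1 were 36.58 TPM for KNL1, 34.38 for NDC80 and 8.815 for MIS12, and in replicate 2 they were 24.91, 21.18 and 8.675. The ranges of KNL1 and NDC80 genes overlapped, and Spc24 lay within the range of the MIS12 genes.

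The inner kinetochore genes encode centromere-bound CENP proteins that stay on the chromosome through the cycle. As a class they were low: 2 of 8 reached 10 TPM in both libraries, and the class median was 7.53 TPM in replicate 1 and 4.78 in replicate 2. Cenpc1, which encodes CENP-C, the link from CENP-A nucleosomes to the MIS12 complex, was highest at 18.49 and 10.8 TPM. Cenpk measured 14.96 and 12.55 TPM, and Cenph, with which it forms a subcomplex, 5.96 and 4.73, a log2 ratio of -1.37 ± 0.06 for Cenph to Cenpk. Cenpt, the other route from the centromere to NDC80, stood at 4.71 and 2.88 TPM, -1.94 ± 0.05 on the log2 scale relative to Cenpc1.

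Cenpl measured 16.0 and 9.89 TPM and its binding partner Cenpn, which recognises the CENP-A nucleosome, 7.22 and 4.49. Their ratio was nearly identical in the libraries (2.216 and 2.203), but it rested on transcripts of Cenpl that are not annotated as coding, as given further on. Cenpi measured 7.84 and 4.83 TPM. Cenpm was the lowest member in both libraries at 1.28 and 1.85 TPM, from 199 and 281 counts, with credibility intervals of 1.115 to 1.472 and 1.627 to 2.061. Cenpi exceeded Cenpm 6.125-fold in replicate 1 and 2.611-fold in replicate 2.

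The corona genes were the most abundant class by median. Cenpf (chromosome 1, 189640606 to 189688086), a large coiled-coil protein that peaks in G2 and binds microtubule motors, measured 87.28 and 54.55 TPM, a mean of 70.91 ± 23.14 (SD, n = 2). Cenpe, the kinesin that carries chromosomes to the spindle equator, measured 45.71 and 29.63 TPM. Cenpe was 0.5237 and 0.5432 times Cenpf in replicates 1 and 2. These long transcripts also took most of the sequencing: Cenpf, Knl1 and Cenpe held 54.08% and 53.41% of all member counts but 20.37% and 19.8% of member TPM.

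Among the checkpoint genes, 6 of 7 reached 10 TPM in both libraries, and on coding transcripts alone 2 did, Bub1b and Bub3. Bub1b, which encodes BUBR1, an inhibitor subunit of the mitotic checkpoint complex, was highest at 35.99 and 21.8 TPM. Its partner Bub3, which docks BUB proteins on KNL1, measured 10.86 and 10.34 TPM, 0.3018 and 0.4743 times Bub1b. Bub1, the kinase that marks the centromere for shugoshin, measured 16.64 and 14.37 TPM and was also below Bub1b (log2 ratio -0.86 ± 0.36).

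Mad2l1, which encodes MAD2, the protein that closes around CDC20, measured 23.48 TPM in replicate 1 and 10.01 in replicate 2. Mad1l1, which encodes MAD1, the platform that converts MAD2, measured 14.5 and 10.31, and the ratio of Mad2l1 to it was within its spread (0.33 ± 0.52 on the log2 scale). Cdc20, the target of the checkpoint, measured 21.68 and 12.31 TPM and did not differ from Mad2l1 beyond the spread (0.09 ± 0.29). Cdc20 was below Fzr1, the other activator of the anaphase-promoting complex, which measured 35.48 and 19.52 TPM, though not on coding transcripts alone (0.03 on the log2 scale). Ttk, the MPS1 kinase that starts checkpoint signalling, was the lowest of the checkpoint genes by mean at 11.21 and 6.27 TPM. Mad2l1 stood far above its relative Mad2l2, which is known from DNA repair and had 5 and 49 counts in the libraries.

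The chromosomal passenger complex had the highest sum of any class, 240.6 and 177.6 TPM, and all 4 genes reached 10 TPM in both libraries. Birc5 (chromosome 11, 117849251 to 117855743), which encodes survivin, the subunit that reads the centromeric histone mark, was the most abundant member in both libraries at 116.5 and 84.52 TPM, a mean of 100.5 ± 22.62 (SD, n = 2). Aurkb (chromosome 11, 69045647 to 69051664), the kinase of the complex, measured 56.23 and 37.44 TPM. Cdca8, which encodes borealin, measured 39.39 and 29.88 TPM, and Incenp, the scaffold, 28.51 and 25.72. Relative to Birc5 the log2 ratios were -1.11 ± 0.09 for Aurkb, -1.53 ± 0.05 for Cdca8 and -1.87 ± 0.22 for Incenp. The order Birc5, Aurkb, Cdca8, Incenp held in both libraries for all transcripts but not for coding ones, on which Aurkb was the lowest of the 4 at 25.5 and 10.2 TPM and its log2 ratio to Birc5 was -2.62 ± 0.61. Aurkc, the germline relative of Aurkb, had 0 counts in both libraries, so that Aurkb was at least 3252.7-fold and 1460.3-fold higher on counts, with a floor of 3 counts per library.

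Of the other mitotic kinases, Aurka, which builds the spindle poles, measured 42.22 TPM in replicate 1 and 17.17 in replicate 2, the largest relative gap between libraries in TPM. Its log2 ratio to Aurkb was -0.77 ± 0.50. Tpx2, the activator of Aurora A, measured 55.01 and 30.82 TPM and was above Aurka in both libraries. Plk1, the polo kinase that acts at centrosomes and kinetochores, measured 16.82 and 10.39 TPM, below the centriole kinase Plk4 at 27.05 and 14.93, a difference that was not seen on coding transcripts alone (0.06 on the log2 scale for Plk1 to Plk4).

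The shugoshins recruit phosphatase to protect cohesin at centromeres. Sgo1 measured 31.4 and 14.6 TPM and Sgo2a 12.56 and 8.55, a log2 ratio of 1.05 ± 0.39 that shrank to 0.22 ± 0.13 on coding transcripts alone. The transcripts of Sgo2a are longer, and on counts not divided by length Sgo2a was the higher of the pair (-0.25 on the log2 scale for Sgo1 to Sgo2a). Sgo2b, a relative of Sgo2a, had 0 counts in both libraries, which puts Sgo2a at least 3101.3-fold and 1957.3-fold higher on counts.

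**Figure D3:**
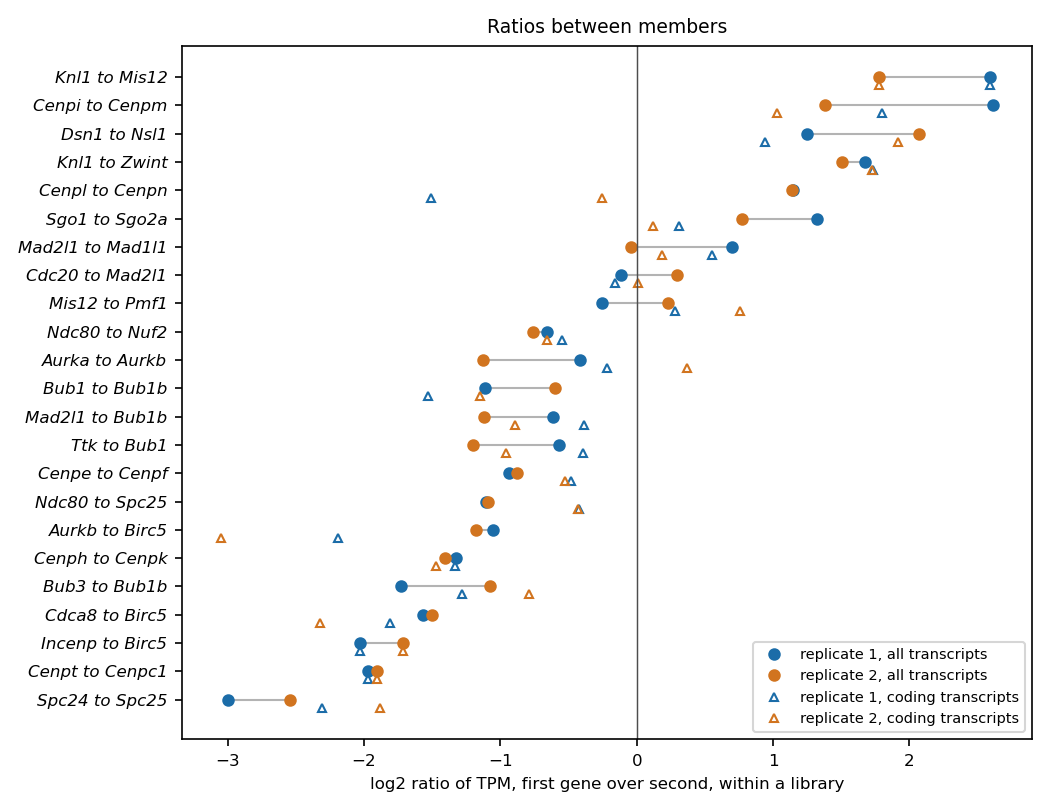
Log2 ratio of TPM between pairs of members within each library, replicate 1 in blue and replicate 2 in orange, with filled circles for all transcripts and open triangles for protein-coding transcripts alone. A horizontal line joins the libraries; among the circles Spc24 to Spc25 lies lowest, among the triangles Aurkb to Birc5 in replicate 2, and the triangles of Cenpl to Cenpn fall on the other side of 0 from its circles.

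A gene's TPM sums over all its annotated transcripts, and for several members a large part of it was not coding. Of the 35 members, 26 had several transcripts in the tables and 9 had 1. The same transcript was the largest in both libraries in 31 members (88.57%), against 79.09% of the 1028 nuclear protein-coding genes that reached 10 TPM in both. In 22 members it held at least 60% of the TPM in both (62.86%), against 48.1% of those comparison genes. Genes with 1 transcript meet both conditions by definition, 9 of the 35 members and 208 of the 1028 comparison genes. No share was computed for genes with several transcripts alone. Of the 22 members at 10 TPM in both, 19 had the same largest transcript (86.36%). In 13 of these 22 it held at least 60% (59.09%). Transcripts annotated as protein-coding held a median of 95.1% of a member's TPM in replicate 1 and 92.98% in replicate 2, or 93.88% and 89.32% over the 22 members at 10 TPM. The median over those 1028 comparison genes was 87.7% and 85.22%. In 7 of the 35 members the coding share was under 75% in both libraries: Aurkb, Cenpl, Sgo1, Bub1, Spc25, Ttk and Pmf1. The same held for 4 of the 22 members at 10 TPM and for 372 of the 1028 comparison genes, so it is not particular to the members.

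Aurkb had a coding share of 45.36% of TPM in replicate 1 and 27.24% in replicate 2, so that its coding transcripts measured 25.5 and 10.2 TPM. Its full-length transcript Aurkb-201 was the largest in replicate 1, with 44.97% of the TPM. In replicate 2 the largest was Aurkb-208, a retained-intron transcript of 462 bases with 40.17% of the TPM, which took 636.2 counts there and 0 in replicate 1. By counts Aurkb-201 was the largest in both, with 73.12% and 55.51%. TPM divides by length, and so a short fragment of a gene weighs more in TPM than in counts.

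Cenpl had the lowest coding share, 15.88% and 38.02% of TPM, and its coding transcript Cenpl-201 measured 2.54 and 3.76 TPM. The largest single share in replicate 1, 36.02% of TPM, was that of Cenpl-209, a processed transcript of 589 bases. Transcripts marked for nonsense-mediated decay also took reads: Cenpl-210 had 2842.9 counts in replicate 1 and 177.5 in replicate 2, and Cenpl-204 had 1007.6 and 1013.3. On coding transcripts alone Cenpl was below Cenpn in both libraries (-1.507 and -0.256 on the log2 scale), whereas over all transcripts it was above. The mean of -0.88 ± 0.88 did not exceed its spread. In Sgo1 the coding share was 44.43% and 56.3% of TPM but 91.96% and 93.68% of counts, the remainder being 2 short processed transcripts. Bub1 showed the same gap, 54.89% and 56.09% of TPM and 86.17% and 85.48% of counts.

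Aurka had coding shares of 52.04% and 76.54% of TPM. Its retained-intron transcript Aurka-205 measured 12.28 TPM in replicate 1 and 1.22 in replicate 2, and the coding transcripts summed to 21.97 and 13.15. On coding transcripts the Aurka to Aurkb ratio was 0.08 on the log2 scale, with the libraries on opposite sides of 0. Shares that moved by more than 15 points between the libraries were found in 12 members. No such count was made for the comparison genes. The largest move was in Zwint, where Zwint-201 went from 86.0% in replicate 1 to 40.68% in replicate 2. The coding transcripts Zwint-202 and Zwint-204 took more in replicate 2. Birc5 was coding throughout: its transcript of 947 bases held 79.06% and 85.18% of its TPM, although by counts its transcript of 3334 bases held 53.22% in replicate 1 and 41.76% in replicate 2. Sharing of reads between overlapping transcripts is an estimate, and with 2 libraries these shares have no further check.

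**Figure D4:**
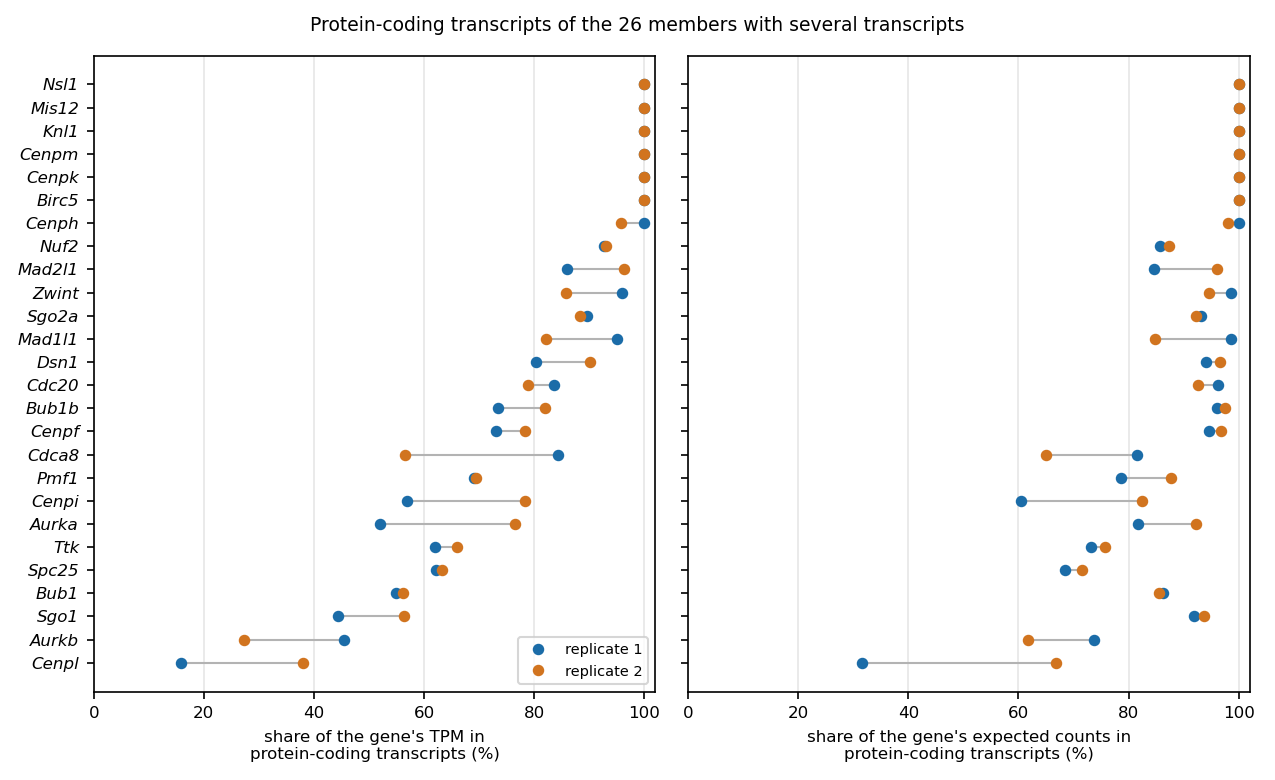
Share of each gene's TPM (left) and of its expected counts (right) held by transcripts annotated as protein-coding, in percent, for the 26 members with several transcripts, replicate 1 in blue and replicate 2 in orange. Sgo1 and Bub1 lie low on the left and above 85% on the right, while Cenpl and Aurkb are low on both.

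Between the libraries most members were close once counts were scaled for depth and composition by TMM. The log2 ratio of replicate 1 over replicate 2 had a median of 0.01 over the 35 members, with 18 above 0 and 17 below. Its median size was 0.17, against 0.28 over the 6485 nuclear protein-coding genes in the same range of mean count. No member was 2-fold higher in replicate 1, where 10.7% of the 10403 genes tested were, and 1 was in replicate 2, Cenpm, where 10.3% were. Among the 6485 genes in the members' range of count the shares were 4.102% and 3.115%, so 0 and 1 of 35 are near the background. Cenpm, at -1.19 on the log2 scale, is also the member with the fewest counts. The next largest were Mad2l1 at 0.56, Bub3 at -0.54, Dsn1 at -0.53, Aurkb at 0.46 and Incenp at -0.46. Each is 1 library against 1, with no replicate on either side and so no test. The large corona and KNL1 genes were nearly level, with 0.02 for Cenpf, 0.03 for Cenpe and a value of Knl1 that rounds to 0. By class the medians ran from -0.34 for the MIS12 complex to 0.19 for the mitotic kinases.

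**Figure D5:**
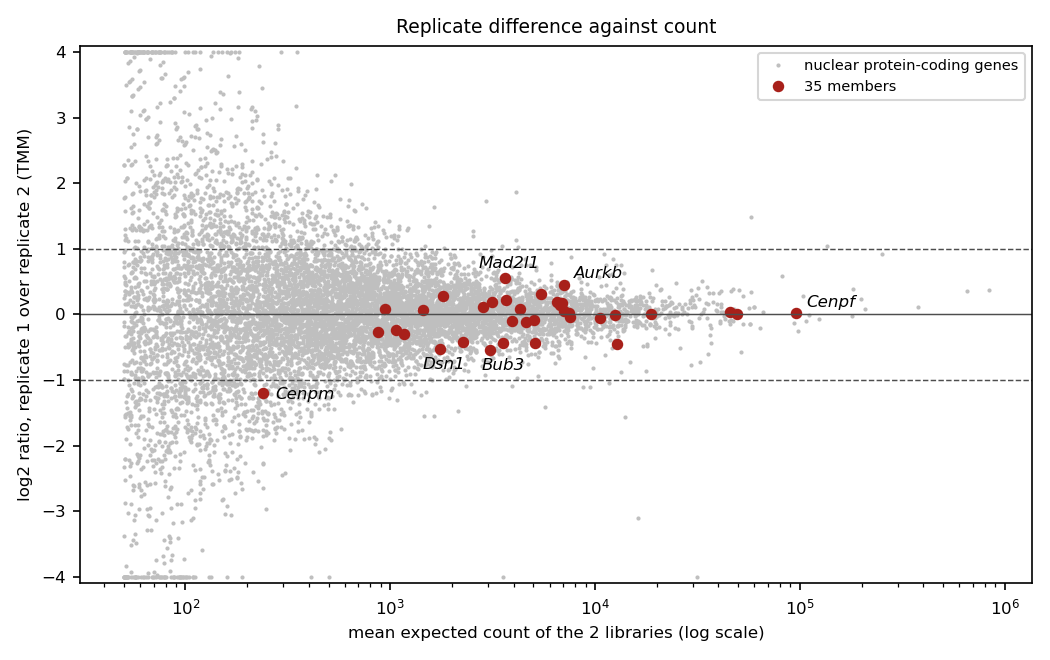
Log2 ratio of replicate 1 over replicate 2 in TMM-scaled counts against the mean expected count on a log axis, with members in red and nuclear protein-coding genes averaging 50 counts or more in grey. Dashed lines mark 2-fold and grey values beyond 4 are drawn at 4; Cenpm is the member outside the dashed lines.

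The other genes of the pathway, 62 loading factors of CENP-A, further CENP and checkpoint genes, subunits and activators of the anaphase-promoting complex and mitotic regulators, had lower medians. In both libraries 52 of the 62 reached 1 TPM, as did 23.9% of nuclear protein-coding genes, and 17 reached 10 TPM, as did 4.79%. Their median was 5.63 TPM in replicate 1 and 4.19 in replicate 2. Highest by mean was Ube2c, the conjugating enzyme of the anaphase-promoting complex, at 136.2 and 50.91 TPM, followed by Ccnb1 (cyclin B1) at 67.36 and 53.16 and its kinase Cdk1 at 72.89 and 44.45. Ube2c exceeded Birc5 in replicate 1 and not in replicate 2. Lowest were Sgo2b and Aurkc at 0 counts and Mad2l2 at 0.04 and 0.43 TPM. Of the 59 with enough counts for the comparison of libraries, 2 were 2-fold higher in replicate 1 and 5 in replicate 2. Over all 10403 genes tested the shares were 10.7% and 10.3%, so these counts are not above that background.

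The cells carried the erythroid programme and also RNA of other blood cells. Of 10 erythroid markers 9 reached 1 TPM in both libraries, among them Slc4a1 (the band 3 anion exchanger) at 692.7 and 422.9 TPM, Klf1 at 53.39 and 18.87 and Epor at 21.99 and 12.05. Kit, the stem cell factor receptor, was at 0.42 and 0.51 TPM. The erythroid markers summed to 22199.9 TPM in replicate 1 and 10007.4 in replicate 2, most of it from Hba-a2 at 16411.5 and 7587.7. All 9 granulocyte markers reached 1 TPM in both libraries, with a summed level of 1212.6 TPM in replicate 1 and 614.8 in replicate 2, and their most abundant gene, S100a8, stood at 556.8 and 252.6. Sums for monocyte and macrophage markers were 122.4 and 75.91 TPM (5 of 5 genes), for B cells 35.65 and 19.28 (3 of 5), for mast cells, basophils and eosinophils 31.62 and 20.02 (4 of 4), for megakaryocytes 9.97 and 3.41 (2 of 4) and for T cells 3.2 and 1.25 (1 of 3). Most of the monocyte and macrophage sum came from Lyz2, at 103.4 and 62.36 TPM, and most of the B cell sum from Ighm, at 26.39 and 14.16. Granulocyte precursors also divide and use the same kinetochore genes, and the part of such cells in the levels above was not tested.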

How the data were processed

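Expected counts, TPM and TPM credibility bounds per gene and transcript were deposited by the authors on mm10, with GENCODE M4 named in the notes deposited with the files; the percent of a gene held by each transcript is also deposited but was recomputed from TPM here. Per the file headers, an expected count is an estimate that divides reads shared by several transcripts. The quantifier is not given in the sources used here, nor is the aligner. Symbols and coordinates came from GENCODE M21 on identifiers without version (42462 of 43346 rows matched). Levels are deposited TPM with mean and SD over n = 2. Ratios between libraries used counts rounded to whole numbers, edgeR 4.0.16 TMM scaling, a prior count of 0.5 and genes averaging 50 counts or more. DESeq2 1.42.0 gave alternative size factors, and scripts were checked on simulated counts. Pair ratios were formed within a library. A pair exceeded its spread where the mean log2 ratio was larger than its SD, which was so for 24 of the 27 measured pairs. With 2 libraries this asks little more than the same sign in each, which the same 24 pairs had. No such share was computed for other gene pairs, so the count has no background. Software was Python 3.11.15 (matplotlib 3.10.9, pandas 2.3.3, numpy 2.4.6, scipy 1.17.1) and R 4.3.3.

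The text names all 35 members, both genes of each listed pair, and of the other pathway genes the 3 highest and 3 lowest by mean TPM. Members and lists were chosen with earlier results of these data known. Alternatives covered TPM rescaled to nuclear protein-coding genes, posterior mean TPM, counts without length, thresholds, filters, scalings, promoter windows and leaving out each library. Ratios on protein-coding transcripts alone were added after seeing the data. With 1 group no test was made.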

Additional observations from a re-analysis of the deposited data

How the results depend on the processing

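Members that reached 10 TPM in both libraries numbered 22. It was 35 after rescaling to nuclear protein-coding genes, which raises the level of every member, and 10 at the stricter threshold of 20 TPM. In a single library it was 23 to 26, and on protein-coding transcripts alone 17. The share of all nuclear protein-coding genes is not given for these settings, so these counts have no background. The median member level of 14.64 TPM (mean of libraries) became 146.6 when rescaled and 94.29 as CPM (counts scaled to library size). The median percentile became 95.68 with posterior mean TPM, 95.34 by CPM and 90.66 among genes with 10 counts or more in each library, and it was 95.52 to 95.55 in a single library. In deposited TPM in place of scaled counts the median log2 ratio of the libraries was 0.63, with 3 members 2-fold higher in replicate 1 and 0 in replicate 2, since that ratio keeps the shift of scale. The count of other pathway genes at 10 TPM became 53 of 62 when rescaled, again with no share of all genes given. At 1 TPM it was 52 of 62, a level that 23.9% of nuclear protein-coding genes reached. Of the 24 pairs beyond their spread, 5 changed sign. On protein-coding transcripts alone the log2 values were -0.88 ± 0.88 for Cenpl to Cenpn and 0.029 ± 0.10 for Cdc20 to Fzr1. They were 0.076 ± 0.41 for Aurka to Aurkb and 0.062 ± 0.027 for Plk1 to Plk4. All but that of Plk1 to Plk4 lay within their spread. On counts with no length correction the value was -0.25 ± 0.16 for Sgo1 to Sgo2a. The 3 pairs within their spread (Mis12 to Pmf1, Mad2l1 to Mad1l1 and Cdc20 to Mad2l1) also changed sign under at least 1 alternative. Without length correction 19 of the 27 pairs moved by more than their spread, besides Sgo1 to Sgo2a named above. On protein-coding transcripts alone 11 did, besides the 4 named above. No paired analysis was possible because there is 1 group. With 2 libraries an SD has 1 degree of freedom, and the members with fewest counts, Cenpm at 199 and 281, are limited most by depth.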

Other observations

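Members were spread over 16 chromosomes, with 6 on chromosome 2, 5 on chromosome 1 and 3 on chromosome 11. Exons of 8 members overlap a gene on the opposite strand. Of these, Cenpk overlaps Ppwd1, listed at 5.83 and 4.68 TPM in replicates 1 and 2, Cdc20 overlaps Elovl1 at 4.53 and 3.61, and Cdca8 overlaps 9930104L06Rik at 1.62 and 1.24. Cenpt overlaps Tsnaxip1, which had 0 counts in replicate 1 and 32 in replicate 2. Reads from such overlaps cannot be assigned with certainty where counting did not use strand, which the sources used here do not state.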
